A study of Homo sapiens with 4 samples.

Results

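The 10 genes studied here report on or restrain signalling through the ERK kinases, and were followed in SAS, an established human line of squamous carcinoma of the tongue. They are the MAP kinase phosphatase genes DUSP4, DUSP5 and DUSP6, the Sprouty genes SPRY2 and SPRY4, the SPRED genes SPRED1 and SPRED2, the transcription factor genes ETV4 and ETV5, and PHLDA1. These genes were chosen by name for their place in the pathway, with earlier results of these data known. All 10 were found among the 35767 rows of the count table, and all 10 passed the filter on low counts that left 20098 tested genes. The 2 control libraries carry the labels siControl (a control siRNA) and genotype WT. The 2 other libraries carry the label siNAT10 (an siRNA against the RNA acetyltransferase NAT10), with a genotype given as NAT10 knockdown in replicate 1 and as NAT11 knockdown in replicate 2. The sources used here do not give the dose or the time of the siRNA. The series title places the comparison in work on NAT10 and the growth of head and neck carcinoma cells. The labels say biological replicate but name no separate cultures, so each p-value reflects spread among libraries that may be technical.

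Growth factor receptors signal to ERK through RAS, RAF and MEK, each switching on the next. Active ERK enters the nucleus and raises transcription of several of its own inhibitors, so the level of their mRNA is often read as a record of recent ERK activity. DUSP proteins remove phosphates from MAP kinases, Sprouty and SPRED proteins act upstream at the level of receptors, RAS and RAF, and the PEA3 factors ETV4 and ETV5 carry the signal on to further genes. In squamous epithelium the pathway lies downstream of EGFR and related receptors and is linked to growth and migration.

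Total counts lay between 30794757 and 36341785 per library. The siNAT10 libraries held no less NAT10 mRNA than the siControl libraries. It stood at 240.4 and 231 CPM (counts relative to the library size, here scaled with TMM factors) in siControl replicates 1 and 2, and at 253 and 248 CPM in siNAT10 replicates 1 and 2. The difference was 0.09 ± 0.06 on the log2 scale (SE, adjusted p = 0.293 with edgeR). NAA40, also named NAT11, was at 22.1 and 18.8 CPM in siControl and at 18.6 and 18.2 CPM in siNAT10 (log2 fold change -0.15 ± 0.10, edgeR adjusted p = 0.255). Directions below therefore compare libraries by their labels. Of 6 squamous epithelial markers measured, KRT17 was high, and KRT5 was near 0 with at most 0.202 CPM in any library. Their summed level was 835 and 881 CPM in siControl against 551 and 594 CPM in siNAT10. KRT17 held most of that sum, at 822 and 866 CPM in siControl and 543 and 586 CPM in siNAT10. KRT17 (log2 fold change -0.58, edgeR adjusted p = 7.95e-07), KRT14 (-1.09, adjusted p = 2.59e-04) and EPCAM (-0.99, adjusted p = 4.04e-05) were lower. TP63 (at most 0.970 CPM in any library, edgeR adjusted p = 0.0979) and CDH1 (at most 1.29 CPM, adjusted p = 0.258) were not called. Of other cell types, the leukocyte marker PTPRC had at most 0.105 CPM, and the endothelial markers summed to between 2.52 and 3.76 CPM. The part of the epithelial marker difference in the results below was not tested, and fewer cells of a type and less RNA per cell cannot be told apart in bulk RNA.

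Of the 10 genes, 5 fell in the libraries labelled siNAT10, and none rose. DUSP4 fell 2.10-fold, PHLDA1 1.67-fold, SPRY4 1.64-fold, ETV5 1.60-fold and ETV4 1.27-fold. DUSP5, DUSP6, SPRY2, SPRED1 and SPRED2 did not pass the threshold of 0.05 in the edgeR quasi-likelihood test with Benjamini-Hochberg adjustment over all tested genes. Over all tested genes 40.4% were called, 20.7% lower and 19.7% higher, against 5 lower and 0 higher of these 10. At an unadjusted p under 0.05, 1 of the 10 (DUSP5) was higher, and DESeq2 and limma-voom each called 0 higher. The median log2 fold change of the 10 genes was -0.24, and that of all tested genes was -0.01. Values of the groups did not overlap in 7 of the 10, of which 6 were lower in both siNAT10 libraries and 1 was higher, while 35.4% and 34.1% of all tested genes separated in these directions.

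**Figure D1:**
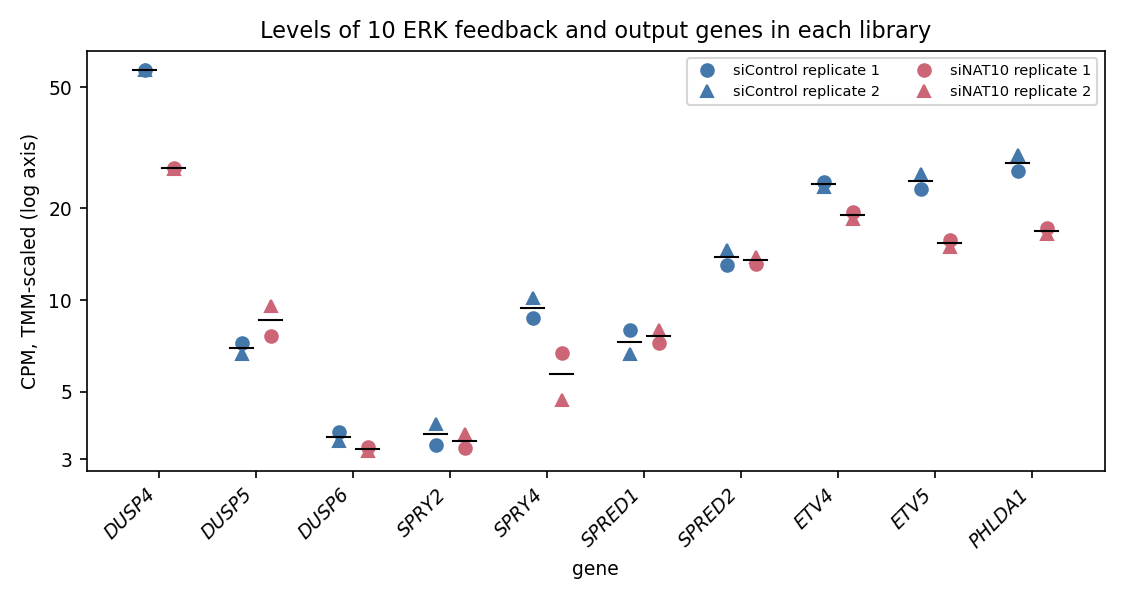
Level of each of the 10 genes in each library, as CPM on TMM-scaled library sizes on a log axis, with circles for replicate 1, triangles for replicate 2 and a line at the mean of 2 libraries. DUSP4 stands highest among the 10 genes and shows the widest gap between groups, and the groups overlap for SPRY2, SPRED1 and SPRED2.

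Of the phosphatase genes, DUSP4 fell, and DUSP5 and DUSP6 were not called. DUSP4 encodes a nuclear phosphatase that acts on ERK and on the stress kinase JNK. Its gene lies on chromosome 8 from 29333064 to 29350668 on the minus strand (GRCh38). DUSP4 was at 57.0 CPM in siControl replicate 1 and 57.0 CPM in replicate 2, and at 27.2 and 27.0 CPM in siNAT10 replicates 1 and 2. Replicates of a group lay within 1 CPM of each other and the groups were far apart. The change was -1.07 ± 0.08 on the log2 scale (SE, 2 libraries per group, edgeR adjusted p = 2.22e-09), with a 95% interval from -1.23 to -0.91. DUSP4 was the only one of the 10 called lower with a fall of at least 2-fold, as were 5.62% of all tested genes. Of all tested genes, 5.95% had a more negative log2 fold change than DUSP4.

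DUSP5 encodes a nuclear phosphatase selective for ERK and lies on chromosome 10 (110497838 to 110511544). DUSP5 was at 7.25 and 6.65 CPM in siControl and at 7.63 and 9.59 CPM in siNAT10. Both siNAT10 libraries were above both siControl libraries, with siNAT10 replicate 2 well above replicate 1. The log2 fold change came to 0.30 ± 0.14 (edgeR adjusted p = 0.103, 95% interval 0.0016 to 0.605), which did not pass. Without siNAT10 replicate 1 it passed, at 0.46 (edgeR adjusted p = 0.0282, range over 14 alternatives 0.0282 to 0.613), and without siNAT10 replicate 2 it was 0.13 (adjusted p = 0.613).

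DUSP6 encodes a cytoplasmic phosphatase selective for ERK and is widely used as a readout of the pathway. It lies on chromosome 12 (89347232 to 89353271). DUSP6 was low here, at 3.68 and 3.45 CPM in siControl and 3.29 and 3.18 CPM in siNAT10. Its siNAT10 libraries were a little below its siControl libraries, and the log2 fold change came to -0.14 ± 0.19 (edgeR adjusted p = 0.605, 95% interval -0.53 to 0.26). Its exons share 1875 bases with a noncoding row on the opposite strand, and the strand setting of the counting is not known. That row had 115 and 108 counts in siControl where DUSP6 had 140 and 128, and 100 and 70 in siNAT10 where DUSP6 had 114 and 94. Most of the counts of DUSP6 cannot be told apart from those of that row, and subtracting it left DUSP6 at 25 and 20 counts in siControl and 14 and 24 in siNAT10, with a log2 fold change of 0.0042.

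Within a library, the ratio of DUSP5 or DUSP6 to DUSP4 needs no scaling between libraries. The log2 ratio of DUSP6 to DUSP4 counts was -3.94 and -4.04 in siControl and -3.04 and -3.07 in siNAT10, a shift of 0.94. The log2 ratio of DUSP5 to DUSP4 was -2.97 and -3.09 in siControl and -1.83 and -1.49 in siNAT10, a shift of 1.37. Both ratios were higher in each siNAT10 library than in each siControl library. An exact two-sided permutation test gave p = 0.333 for each, the smallest p that 2 against 2 libraries allow. Of the 5 ratios compared in this way (these and those given below), none could pass the threshold at this size.

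**Figure D2:**
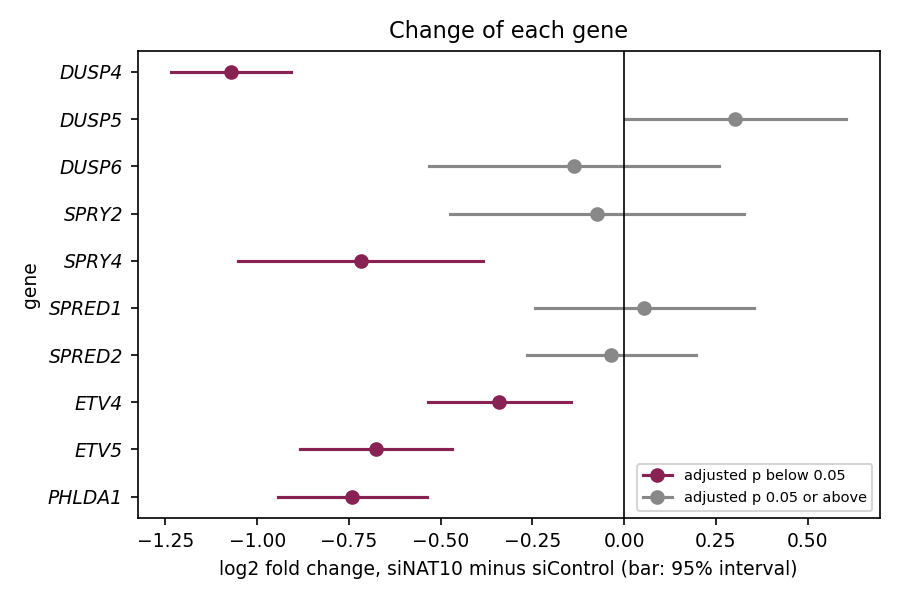
Log2 fold change of each of the 10 genes, siNAT10 minus siControl, with 95% intervals from the edgeR fit, coloured by whether the adjusted p was below 0.05. DUSP4, SPRY4, ETV4, ETV5 and PHLDA1 lie wholly below 0, and DUSP5 is the gene farthest above 0, at 0.30.

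Of the Sprouty genes, SPRY4 fell and SPRY2 was not called. Sprouty proteins are induced by growth factors and block signalling from receptor tyrosine kinases to RAS and RAF. SPRY4 lies on chromosome 5 (142310427 to 142326455, minus strand). SPRY4 was at 8.74 and 10.2 CPM in siControl and at 6.70 and 4.71 CPM in siNAT10. Both siNAT10 libraries were lower, and replicate 2 was the lowest. The log2 fold change came to -0.72 ± 0.16 (edgeR adjusted p = 0.00126), with a 95% interval from -1.05 to -0.38. Its size rested in part on siNAT10 replicate 2, as it was -0.49 without that library and -1.004 without siNAT10 replicate 1, and it passed in 14 of 14 alternatives.

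SPRY2 (chromosome 13, 80335976 to 80340951) was at 3.34 and 3.91 CPM in siControl and at 3.27 and 3.63 CPM in siNAT10. Its groups overlapped, and the log2 fold change came to -0.07 ± 0.19 (edgeR adjusted p = 0.792, 95% interval -0.47 to 0.33). The log2 ratio of SPRY2 to SPRY4 counts was -1.38 and -1.37 in siControl and -1.03 and -0.37 in siNAT10, a shift of 0.68 (exact permutation p = 0.333). The shift was 0.35 without siNAT10 replicate 2 and 1.004 without siNAT10 replicate 1.

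No change of the SPRED genes was detectable. SPRED proteins bind neurofibromin, the RAS inactivating protein encoded by NF1, and bring it to the membrane. SPRED1 (chromosome 15, 38252326 to 38357249) was at 7.96 and 6.63 CPM in siControl and at 7.22 and 7.96 CPM in siNAT10. Its groups overlapped, and the difference was 0.06 ± 0.14 on the log2 scale (edgeR adjusted p = 0.79, 95% interval -0.24 to 0.35). SPRED2 (chromosome 2, 65310851 to 65432637) was at 13.1 and 14.6 CPM in siControl and at 13.1 and 13.9 CPM in siNAT10. The change was -0.03 ± 0.11 on the log2 scale (edgeR adjusted p = 0.83, 95% interval -0.27 to 0.20). The 95% intervals of DUSP4, PHLDA1, SPRY4 and ETV5 lie wholly below these 2 intervals. That of ETV4 (-0.53 to -0.14) overlaps both, so a smaller fall of the SPRED genes than of ETV4 is not shown. The log2 ratio of SPRED1 to SPRED2 was -0.71 and -1.14 in siControl and -0.86 and -0.80 in siNAT10 (shift 0.10, exact permutation p = 1).

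Both PEA3 factors fell. ETV4 and ETV5 encode ETS family transcription factors whose genes are induced by ERK signalling and repressed by Capicua, the protein encoded by CIC. ETV5 (chromosome 3, 186046308 to 186110318, minus strand) was at 23.2 and 26.0 CPM in siControl and at 15.7 and 14.98 CPM in siNAT10. The groups were well apart, and the difference was -0.68 ± 0.10 on the log2 scale (edgeR adjusted p = 2.04e-05, 95% interval -0.88 to -0.47). ETV4 (chromosome 17, 43527844 to 43579620, minus strand) was at 24.4 and 23.6 CPM in siControl and at 19.4 and 18.5 CPM in siNAT10. The groups were closer than those of ETV5 but did not overlap, and the difference was -0.34 ± 0.09 on the log2 scale (edgeR adjusted p = 0.00652, 95% interval -0.53 to -0.14). The call on ETV4 was lost without siNAT10 replicate 2 (-0.31, edgeR adjusted p = 0.0522, range over 13 alternatives 7.11e-04 to 0.0522). ETV5 shares 164 exon bases with DGKG on the same strand, a row of 309 and 393 counts in siControl and 182 and 167 in siNAT10. ETV4 shares 68 bases with DHX8 on the other strand, a row of 3236 and 3149 counts in siControl and 4175 and 3453 in siNAT10. The log2 ratio of ETV4 to ETV5 was 0.08 and -0.14 in siControl and 0.30 and 0.30 in siNAT10 (shift 0.33, exact permutation p = 0.333).

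PHLDA1 encodes a protein with a pleckstrin homology-like domain and is a common marker of ERK output. It lies on chromosome 12 (76025447 to 76033932, minus strand). PHLDA1 was at 26.5 and 29.9 CPM in siControl and at 17.3 and 16.5 CPM in siNAT10. Both siNAT10 libraries lay well below both siControl libraries, and the difference was -0.74 ± 0.10 on the log2 scale (edgeR adjusted p = 5.10e-06, 95% interval -0.94 to -0.54). Its exons hold 553 of the 569 bases of RP11-290L1.3 and all 779 of RP11-290L1.2, both on the opposite strand. RP11-290L1.3 had 438 and 501 counts in siControl, beside 1009 and 1111 for PHLDA1, and 259 and 192 in siNAT10, beside 597 and 487. With both rows subtracted, PHLDA1 still held 566 and 610 counts in siControl and 335 and 288 in siNAT10 and remained called.

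Per length of exon, DUSP4 led the 10 genes in siControl and ETV4 led them in siNAT10. Levels between genes were compared as CPM per kilobase of exon (RPKM). DUSP4 was at 7.85 ± 0.00064 RPKM (SD, n = 2) in siControl, above ETV4 at 6.66 ± 0.172, ETV5 at 4.23 ± 0.342 and PHLDA1 at 3.50 ± 0.301. The place of PHLDA1 rests on counts shared with opposite-strand rows, and with those subtracted it was at 1.84 and 2.04 RPKM in siControl, below SPRED2 and DUSP5. SPRED2 at 2.68 and DUSP5 at 2.66 RPKM followed and were not apart beyond their spread. SPRY4 at 1.59, SPRY2 at 1.19, SPRED1 at 0.883 and DUSP6 at 0.769 RPKM were lowest, and SPRED1 and DUSP6 were apart by no more than the SD of SPRED1. With its opposite-strand row subtracted, DUSP6 was at 0.142 and 0.116 RPKM in siControl, well below SPRED1. In siNAT10, ETV4 at 5.26 ± 0.18 RPKM stood above DUSP4 at 3.74 ± 0.0212, and DUSP5 at 3.29 ± 0.53 was next, not apart from DUSP4 beyond its spread. ETV5 at 2.65, SPRED2 at 2.62 and PHLDA1 at 2.09 RPKM came after. SPRY2 at 1.13, SPRY4 at 0.962 and SPRED1 at 0.919 RPKM formed a low cluster whose neighbours did not differ beyond their spread, above DUSP6 at 0.699 RPKM. After the same subtraction DUSP6 was at 0.087 and 0.176 RPKM in siNAT10.

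**Figure D3:**
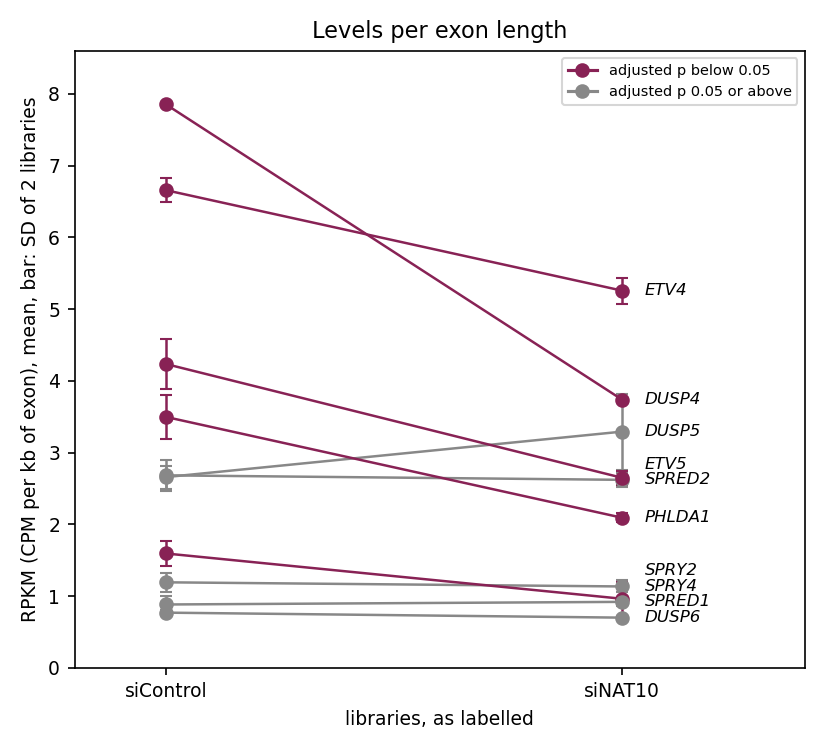
Mean level per kilobase of exon (RPKM) of each gene in the siControl and siNAT10 libraries, with bars for the SD of 2 libraries and colour for the adjusted p. The line of DUSP4 drops from 7.85 to 3.74 RPKM and crosses that of ETV4, which goes from 6.66 to 5.26 RPKM.

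Summed over the 10 genes, the libraries held 175 and 182 CPM in siControl and 121 and 120 CPM in siNAT10. DUSP4 alone made up 51.4% of the difference between the group means, PHLDA1 19.5% and ETV5 15.8%. The share of PHLDA1 rests in part on counts shared with its opposite-strand rows, and shares with those subtracted were not worked out. Without DUSP4 the sums were 118 and 125 CPM in siControl and 93.7 and 92.9 CPM in siNAT10, so the remaining genes also summed lower in both siNAT10 libraries. DUSP4 took 32.5% and 31.3% of the sum in siControl and 22.5% in each siNAT10 library.

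Promoter sequence was searched for letters bound by factors of the pathway, because several of these genes fell together. RefSeq windows of 250 bases before a gene's start (GRCh38.p14) were held for 6 of the 10 genes, in 9 windows, with SPRY4 and PHLDA1 the called genes among them. The rows of the deposited table for SPRY4 and PHLDA1 begin further upstream than the RefSeq start, so both matches shown for them lie inside the counted gene and inside an exon of it. CCGGAA, a core of ETS factor sites, occurred on either strand in windows of PHLDA1 and SPRY2 and in 14.5% of all 35116 windows. TGACG, the core of the cAMP response element, occurred in windows of SPRY4 and SPRY2 and in 21.2% of all windows. The Capicua octamers TGAATGAA and TGAATGGA (2.19% of all windows) and the AP-1 letters TGANTCA (6.57%) were not in these 9 windows. The matches are shown with 12 bases on each side, 5′ to 3′ on the minus strand on which these genes lie, with the matched letters in capitals, so that the fallen genes can be set beside SPRY2, which was not called. No motif letters are shared by SPRY4 and PHLDA1 here, and a match is a description and not a site.
PHLDA1, chr12:76031848-76031877: gaggagaggagtTTCCGGggctcgggtccg
SPRY4, chr5:142324299-142324327: tcttcggagccgTGACGgactgaattccc
SPRY2, chr13:80341251-80341280: tccctgcctcctCCGGAAaggcgagggcgc
SPRY2, chr13:80341300-80341328: ctcggatccacaTGACGccatttactgct

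Of 14 tested relatives of these genes, 5 fell and 1 rose (35.7% and 7.14%, beside 20.7% and 19.7% of all tested genes), with a median log2 fold change of -0.17. DUSP9, a cytoplasmic phosphatase gene of the DUSP6 subgroup, went from 6.48 to 3.58 CPM (-0.85 ± 0.16 on the log2 scale, edgeR adjusted p = 3.58e-04). SPRY1, a further Sprouty gene, fell to 2.92 CPM (-0.78 ± 0.18, adjusted p = 0.00181). DUSP1, an immediate early phosphatase gene, went from 41.9 to 32.3 CPM (-0.37 ± 0.13, adjusted p = 0.0406), a call lost in 4 of 14 alternatives. These were DESeq2 (adjusted p = 0.274), upper-quartile scaling (0.0518), without siControl replicate 2 (-0.13, 0.331) and without siNAT10 replicate 2 (-0.26, 0.149), while it was -0.57 without siControl replicate 1. The other called relatives, named after their values were seen, were DUSP16 (-0.29) and SPRED3 (-0.93), which fell, and DUSP7 (0.58), which rose. SPRED3 and DUSP7 were low, at 3.65 and 3.22 CPM in siControl and 1.90 and 4.83 CPM in siNAT10. The DUSP7 call was lost with DESeq2 (adjusted p = 0.0564) and without siNAT10 replicate 2.

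Of 22 other genes induced by ERK signalling that could be tested, 11 fell and 4 rose (50% and 18.2%, beside 20.7% and 19.7% of all tested genes), with a median log2 fold change of -0.31, while EPHA4 and EREG had too few counts to be tested. AREG, the gene of the EGFR ligand amphiregulin, went from 49.8 to 20.2 CPM (-1.30 ± 0.09, edgeR adjusted p = 7.97e-10). PLAUR, the urokinase receptor gene, went from 270 to 120 CPM (-1.17 ± 0.17, adjusted p = 0.003). Its siControl libraries were apart, at 223 and 317 CPM. The log2 fold change of PLAUR was -1.40 without siControl replicate 1 and -0.90 without siControl replicate 2. JUNB, an AP-1 subunit gene that overlaps HOOK2, went from 43.6 to 22.7 CPM (-0.94 ± 0.10, adjusted p = 2.60e-07). HOOK2 shares 259 exon bases with JUNB on the other strand. It had 2730 and 2635 counts in siControl and 1326 and 1031 in siNAT10. In the other direction, the AP-1 genes FOS (0.63 ± 0.15, adjusted p = 0.00229) and FOSL1 (0.36 ± 0.09, adjusted p = 0.00385) and the EGFR ligand gene HBEGF (0.51 ± 0.13, adjusted p = 0.00287) rose. FOS and FOSL1 did not pass without siNAT10 replicate 2 (adjusted p 0.0547 and 0.0903). EGR1, the remaining gene that rose and named after its value was seen, changed by 0.89. It was low, at 1.31 and 1.72 CPM in siControl and 2.72 and 2.91 CPM in siNAT10. Its call was lost without siControl replicate 1, where the change was 0.71. Immediate early genes thus went both ways, with JUNB lower and FOS higher.

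In the cascade itself, from adaptors to kinases, 5 of 22 genes fell and 6 rose (22.7% and 27.3%, beside 20.7% and 19.7% of all tested genes), with a median log2 fold change of -0.02. PTPN11, which encodes the phosphatase SHP2 that couples receptors to RAS, rose from 181 to 262 CPM (0.54 ± 0.07, edgeR adjusted p = 3.07e-06). Its exons overlap RPL6, a ribosomal protein gene on the other strand, by 111 bases. RPL6 had 21853 and 21775 counts in siControl and 27696 and 26861 in siNAT10. The part of RPL6 reads in the rise of PTPN11 was not tested. HRAS rose from 31.6 to 44.3 CPM (0.49 ± 0.08, adjusted p = 7.69e-05) and the RAF gene ARAF from 28.3 to 37.4 CPM (0.40 ± 0.08, adjusted p = 7.68e-04). KSR1, a scaffold that holds RAF, MEK and ERK together, fell from 18.2 to 8.40 CPM (-1.12 ± 0.11, adjusted p = 1.53e-07), with AC015688.3 and RP11-19P22.8 overlapping it. RPS6KA3, a kinase gene downstream of ERK, fell from 113 to 77.0 CPM (-0.55 ± 0.08, adjusted p = 9.85e-06), and SOS1, a RAS activator gene, from 49.3 to 37.7 CPM (-0.39 ± 0.09, adjusted p = 0.00162, and -0.25 without siControl replicate 1, adjusted p = 0.0225). The other cascade genes that rose, named after their values were seen, were the MEK gene MAP2K1, the RAS inactivator gene RASA1 and NRAS. MAP2K1 changed by 0.38 (0.23 without siControl replicate 1), RASA1 by 0.36 and NRAS by 0.34, the NRAS call being lost without siNAT10 replicate 2. MAP2K1 overlaps SNAPC5, which had 2517 and 2809 counts in siControl and 3257 and 3086 in siNAT10. It also overlaps CTD-3185P2.1, with 205 and 200 counts in siControl and 269 and 307 in siNAT10. RASA1 overlaps CCNH, which had 1507 and 1568 counts in siControl and 1277 and 1193 in siNAT10. The part of these rows in the rises was not tested. The other cascade genes that fell, named after their values were seen, were the adaptor gene GAB1 and MAPK3, which encodes ERK1. GAB1 was low, going from 4.30 to 2.19 CPM (-0.96), and MAPK3 changed by -0.38. The MAPK3 call was lost in 3 of 14 alternatives (DESeq2 with adjusted p = 0.0872, without siControl replicate 1 and without siNAT10 replicate 1). The log2 fold change of MAPK3 was -0.19 without siNAT10 replicate 1 and -0.58 without siNAT10 replicate 2.

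Among transcription factors and repressors that ERK acts on, 4 of 11 fell and 2 rose (36.4% and 18.2%, beside 20.7% and 19.7% of all tested genes), with a median log2 fold change of -0.09. ATXN1, a partner of Capicua, fell from 38.1 to 19.5 CPM (-0.97 ± 0.09, edgeR adjusted p = 1.10e-07). The ETS repressor genes ERF (-0.65 ± 0.11, adjusted p = 7.29e-05, overlapping AC006486.9) and ETV3 (-0.62 ± 0.08, adjusted p = 4.20e-06) fell. ATXN1L, a further Capicua partner named after its value was seen, fell by 0.35 on the log2 scale. The activator genes ETS1 (0.64 ± 0.09, adjusted p = 7.43e-06) and SRF (0.57 ± 0.08, adjusted p = 2.30e-05) rose.

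**Figure D4:**
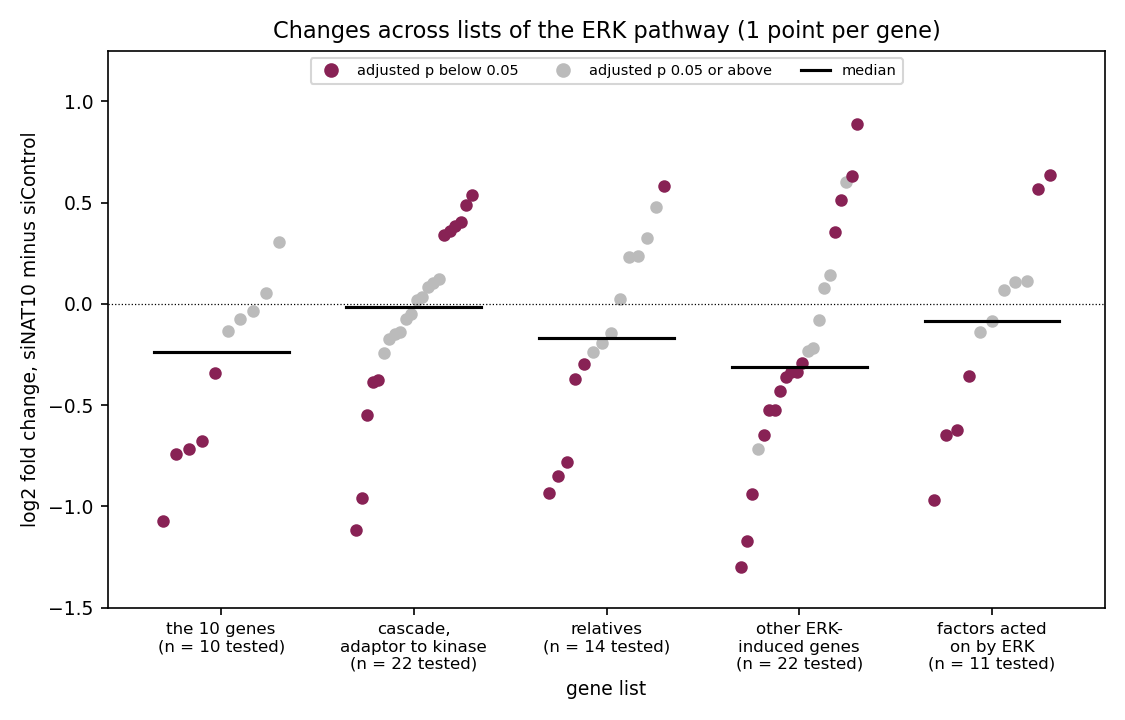
Log2 fold change of every tested gene (1 point per gene, siNAT10 minus siControl) in the 10 genes and in 4 lists of the ERK pathway, coloured by adjusted p, with a line at the median. The medians are -0.24 for the 10 genes, -0.02 for the cascade, -0.17 for relatives, -0.31 for other ERK-induced genes and -0.09 for factors acted on by ERK.

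**Figure D5:**
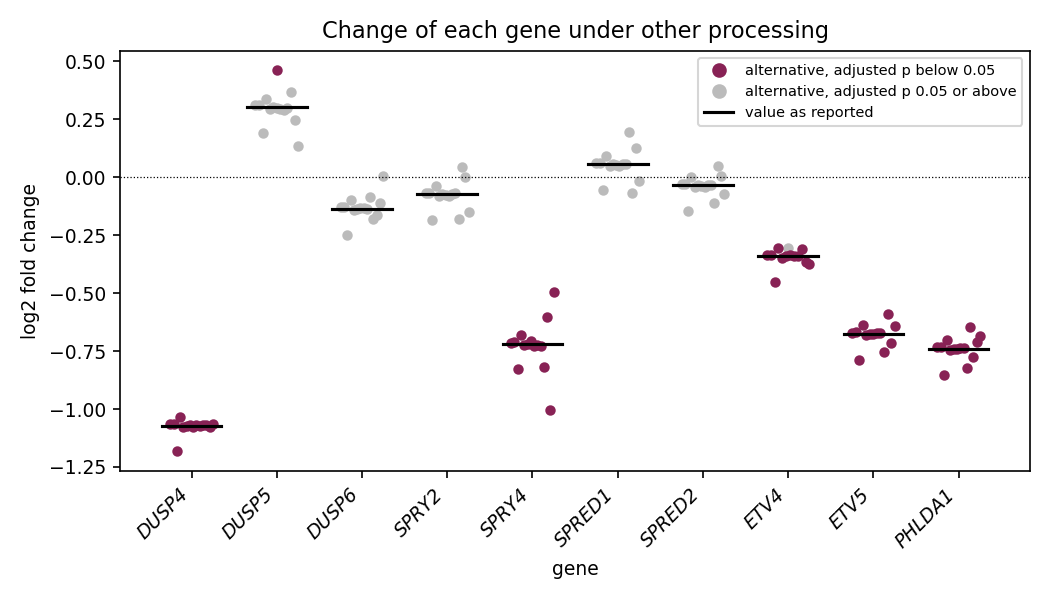
Log2 fold change of each of the 10 genes under each alternative processing (points, coloured by adjusted p) beside the value as reported (line). DUSP4, SPRY4, ETV5 and PHLDA1 stay below 0 and called in each alternative that tested them, ETV4 loses its call in 1 and DUSP5 gains one in 1.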

How the data were processed

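RNA sequencing of 4 SAS libraries was analysed from the deposited table of raw counts per gene. The submitters' processing notes name fastp 0.23.4, STAR 2.5.3a, featureCounts and GRCh38 as what the authors ran, and per the labels' protocols RNA was extracted with TRIzol and prepared with a digital mRNA kit. The annotation release, strand setting and any collapsing of PCR copies are unknown from the sources used here. A row wholly inside PHLDA3 on its strand held 43 and 27 counts in siControl, so reads in overlapping rows were counted more than once. Between 72.0% and 73.5% of counts from 1 to 50 were even, as if both mates of a pair were counted. Groups came from sample titles. Exon length per gene came from the deposited table.

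Counts were tested in R 4.3.3 with edgeR 4.0.16 (filterByExpr, TMM, robust quasi-likelihood fit, group only, 2 residual degrees of freedom before shrinkage, two-sided, Benjamini-Hochberg over 20098 genes), and the code was checked on simulated counts. Alternatives used DESeq2 1.42.0, limma 3.58.1 and other scalings, filters and subsets. Members and lists were chosen with earlier results of these data known. From each list, up to 3 called genes with the largest rise and 3 with the largest fall, at 5 CPM or more in the higher group, are named, with NAT10 and NAA40. Replicates differed beyond sampling noise (chi-square per degree of freedom 8.68 in siControl and 5.14 in siNAT10).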

Additional observations from a re-analysis of the deposited data

How the results depend on the processing

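The edgeR calls on DUSP4, SPRY4, ETV5 and PHLDA1 held in each alternative that tested them. With rows that overlap another row left out, 6 of the 10 genes were tested and 2 (DUSP4 and SPRY4) were called lower, with a median log2 fold change of -0.063 and 3931 genes called over the table. In that setting the cascade had 2 genes called higher, other ERK-induced genes 6 lower and the factors acted on by ERK 2 lower, and fewer genes were tested. With library totals alone the median of all genes moved to -0.12, 32.4% of calls were higher against 48.7%, the cascade had 9 genes called lower, and the log2 fold changes of NAT10 and SPRED1 turned to -0.024 and -0.057. NAA40 then passed (-0.26, edgeR adjusted p = 0.049). Upper-quartile scaling put SPRED2 at 0.0020. Subtracting overlapping rows, chosen after seeing the data, put DUSP6 at 0.0042. Relatives called higher numbered 0 with DESeq2 and 2 with upper-quartile scaling, no count filter, limma-voom and the replicate block, against 1. The causes were not tested.

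Leaving out each library in turn gave 4 to 5 of the 10 called lower, 0 to 1 called higher, 0 to 2 relatives called higher and 2 to 4 other ERK-induced genes called higher. The lowest and highest log2 fold changes were -0.18 and 0.046 for SPRY2, -0.068 and 0.20 for SPRED1 and -0.11 and 0.050 for SPRED2, with SPRY2 at 0.0024 and SPRED2 at 0.0035 without siNAT10 replicate 1 and SPRED1 at -0.014 without siNAT10 replicate 2. The shift of the ratio of SPRED1 to SPRED2 ran from -0.12 without siControl replicate 2 to 0.31 without siControl replicate 1. A lone library in a group was assumed to vary like the other group. The replicate block called 5 of the 10 lower and 8254 genes in all, against 8120. Deviations of libraries with the same number correlated at -0.019 over 20098 genes. A correlation over all genes cannot show whether such libraries were prepared together, as a shared batch may touch few genes. The lowest count of any of the 10 genes in a library was 94, for DUSP6.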
